A study of Mus musculus with 7 samples.

Results

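The CD4 and CD8 lineage genes described here are Cd4, Cd8a, Cd8b1, Zbtb7b and Runx3, the genes of the coreceptors that divide T cells into helper and cytotoxic lineages and of the transcription factors that set this division. They were chosen by name, by matching the Ensembl identifiers of the count table to mouse symbols, and all 5 were found among its 22629 entries. All 5 also had enough counts to be tested, as 5 of 17489 tested genes.

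CD4 on helper and regulatory T cells binds MHC class II, and CD8 on cytotoxic T cells binds MHC class I, and the tail of each coreceptor carries the kinase LCK to the T cell receptor. CD8 is either a pair of CD8 alpha chains or a pair of CD8 alpha and CD8 beta, and the beta chain, the product of Cd8b1, reaches the cell surface only with the alpha chain. In the thymus ThPOK, the product of Zbtb7b, holds cells in the CD4 lineage, whereas RUNX3 silences Cd4 and maintains the CD8 lineage. These factors also act outside T cells, Runx3 in NK cells and other leukocytes and Zbtb7b in epithelial and connective tissue cells.

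RNA was sequenced from s/c tumors harvested 2 weeks after C57BL/6 mice were inoculated with the 1242 cell line, a pancreatic ductal adenocarcinoma (PDA) line from a KPC mouse, a model that uses Pdx1-Cre. The sgScramble group was 3 tumors, numbered 1, 4 and 5, formed with PDA cells carrying Cas9 and a control guide. The sgScramble-icOVA group was 4 tumors, numbered 15, 16, 18 and 2, formed with such cells that also expressed icOVA, a form of ovalbumin that stays in the cytoplasm and is induced by doxycycline. The comparison asked how a strong foreign antigen in the cancer cells changes the immune genes of the tumor, and total counts per tumor ran from 30904855 to 37510591.

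The icOVA cells were sorted and cloned from single cells, and the methods describe a larger inoculum for them. Whether the cells of the 3 sgScramble tumors were a clone or carried the icOVA vector, and whether those mice received doxycycline, is not stated in the sources used here, so these differences and the antigen cannot be told apart. The mice were bought at a single age and housed for a set time before use, per the methods, and their sex is not given there. OVA, in CPM (counts scaled to library size by TMM), was at most 4.35 in a sgScramble tumor and at least 98.2 in an icOVA tumor, so the transgene separated the tumors as their labels do. The sgScramble tumors still had 151, 85 and 92 OVA counts, and the source of these was not tested. The labels give each tumor as a sample of its own without naming animals, so p values measure the spread between these 3 and 4 tumors.

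The coreceptor genes were higher in the icOVA tumors, Cd4 by 2.72-fold, Cd8b1 by 2.57-fold and Cd8a by 1.98-fold, and the first 2 of these passed the test. Runx3 rose by 1.49-fold, and Zbtb7b was at 0.86 of its level in sgScramble tumors without passing. Of the 5 genes, 3 were called higher at an adjusted p below 0.05 (edgeR, quasi-likelihood test, Benjamini-Hochberg adjustment over all genes), against 3.36% of all tested genes. In the same edgeR test 0 of 5 were called lower, against 2.54% of all tested genes, with 1 of 5 lower at an unadjusted p below 0.05, 1 with DESeq2 and 0 with limma-voom. Over all tested genes, 13.4% were higher and 13.8% lower at an unadjusted p below 0.05 in the edgeR test, DESeq2 called 8.95% higher and 7.3% lower of the 17348 genes for which it gave an adjusted p, and limma-voom 2.96% and 2.42%, shares against which the counts of each list stand. In 4 of the 5 every icOVA tumor lay above every sgScramble tumor, as in 11.3% of tested genes, and in 1, Zbtb7b, every icOVA tumor lay below, as in 13.3%. In RNA from whole tumors, fewer cells of a type and less RNA per cell cannot be told apart.

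Cd4 (ENSMUSG00000023274.14) lies on the minus strand of GRCm38 at chr6:124864692-124888221 in the GENCODE M21 annotation. It had 4.78, 5.68 and 5.34 CPM in tumors 1, 4 and 5 of the sgScramble group, and 14.3, 9.51, 21.6 and 11.8 CPM in tumors 15, 16, 18 and 2 of the icOVA group. The sgScramble tumors were nearly alike, whereas the icOVA tumors spread widely, with tumor 18 highest and tumor 16 lowest. The log2 fold change was 1.44 (adjusted p = 0.0337, SE 0.28, edgeR with Benjamini-Hochberg adjustment). Without icOVA tumor 18 it was 1.17, and Cd4 still passed (adjusted p = 0.024, edgeR with Benjamini-Hochberg adjustment). With limma-voom the adjusted p was 0.0523, the highest among the 7 alternatives that kept all tumors, which ran down to 1.77e-05 with DESeq2.

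Cd8a (ENSMUSG00000053977.13), the gene of the alpha chain shared by every form of CD8, lies on the plus strand at chr6:71373427-71379173. It had 28.0, 55.7 and 38.8 CPM in tumors 1, 4 and 5 of the sgScramble group, and 97.6, 65.1, 80.6 and 79.7 CPM in tumors 15, 16, 18 and 2 of the icOVA group. Here the sgScramble tumors were the more scattered, and sgScramble tumor 4 came close to the lowest icOVA tumor, 16, without reaching it. The log2 fold change was 0.98 (SE 0.23), and its adjusted p of 0.0505 (edgeR with Benjamini-Hochberg adjustment) was just outside the threshold. Cd8a passed with DESeq2 (adjusted p = 0.000795), limma-voom (0.0464) and edgeR on genes with at least 10 counts in every tumor (0.0469), and the 7 alternatives ran up to 0.0551. It also passed when sgScramble tumor 4 was removed (1.28 on the log2 scale, adjusted p = 0.0215) and without icOVA tumor 16 (1.07, adjusted p = 0.039), both with edgeR and Benjamini-Hochberg adjustment.

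Cd8b1 (ENSMUSG00000053044.8), the gene of the beta chain, lies on the plus strand at chr6:71322788-71337494, next to Cd8a. Its CPM was 9.07, 17.99 and 12.4 in tumors 1, 4 and 5 of the sgScramble group, and 45.5, 25.8, 32.4 and 31.8 in tumors 15, 16, 18 and 2 of the icOVA group. The tumors stood in the same order as for Cd8a, with icOVA tumor 15 highest and sgScramble tumor 1 lowest, and the groups did not overlap. Cd8b1 rose by a log2 fold change of 1.36 (adjusted p = 0.0349, SE 0.27, edgeR with Benjamini-Hochberg adjustment).

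**Figure D1:**
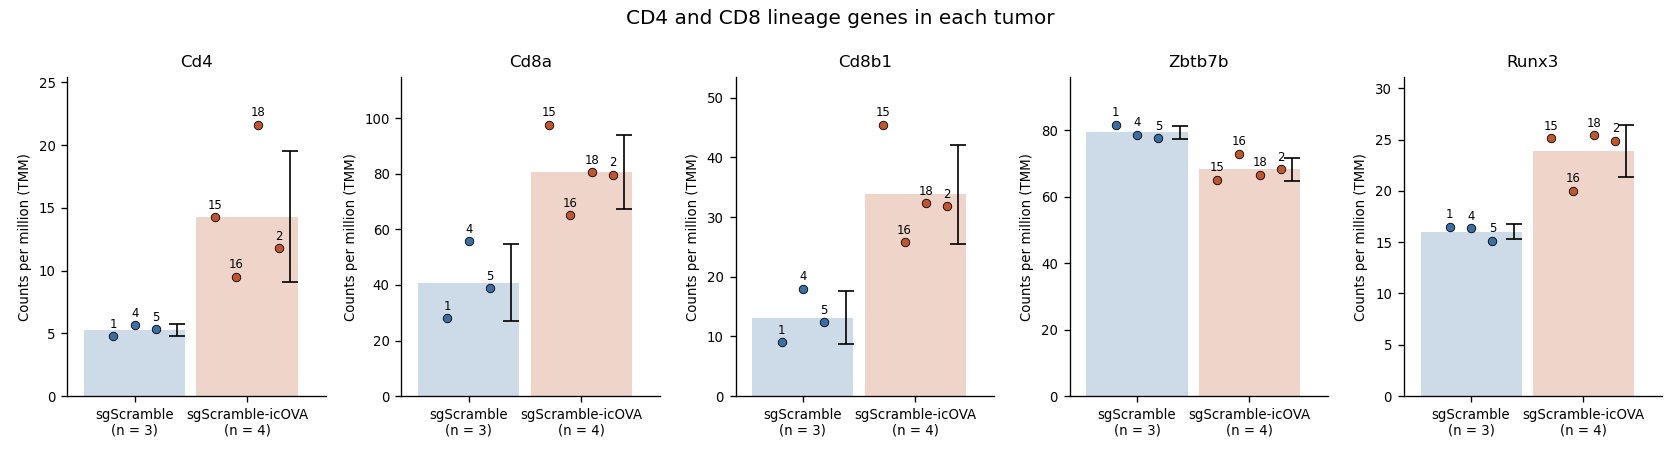
CPM (TMM scaled) of each of the 5 genes in each tumor. Points are tumors with their numbers, shaded bars are group means and error bars are the SD (n = 3 sgScramble, n = 4 sgScramble-icOVA). For Cd4, Cd8a, Cd8b1 and Runx3 the 4 icOVA tumors sit above the sgScramble tumors, for Zbtb7b below them, and tumor 18 is the highest for Cd4 at 21.6.

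Runx3 (ENSMUSG00000070691.10), whose product silences Cd4 in CD8 lineage cells, lies on the plus strand at chr4:135120652-135177990. It had 16.5, 16.4 and 15.2 CPM in tumors 1, 4 and 5 of the sgScramble group, and 25.1, 20.03, 25.4 and 24.9 CPM in tumors 15, 16, 18 and 2 of the icOVA group. The icOVA tumors were alike except for tumor 16, which lay between the other icOVA tumors and the sgScramble tumors. Runx3 rose by a log2 fold change of 0.58 (adjusted p = 0.0315, SE 0.11, edgeR with Benjamini-Hochberg adjustment).

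Zbtb7b (ENSMUSG00000028042.15), the gene of the CD4 lineage factor ThPOK, lies on the minus strand at chr3:89377644-89394776. It had 81.6, 78.7 and 77.6 CPM in tumors 1, 4 and 5 of the sgScramble group, and 65.1, 73.0, 66.6 and 68.2 CPM in tumors 15, 16, 18 and 2 of the icOVA group. All icOVA tumors lay below all sgScramble tumors, by a small margin, and tumor 16 was again the icOVA tumor nearest to the other group. The log2 fold change of -0.22 (SE 0.062) did not pass (adjusted p = 0.0789, edgeR with Benjamini-Hochberg adjustment). It passed with DESeq2 (adjusted p = 0.037), and the adjusted p ran up to 0.112 among the 7 alternatives. The antisense gene Gm15417 shares 116 exon bases with Zbtb7b on the opposite strand and had 62 to 85 counts per tumor, against 2195 to 2836 for Zbtb7b. Whether the counting used the strand is not given in the sources used here, so a small part of the Zbtb7b counts is uncertain. Runx3 also spans an antisense gene, Gm16224, which shares 0 exon bases with it.

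The calls of Cd4, Cd8b1 and Runx3 depended on which tumors were in the fit. None of the 5 genes was called by edgeR when tumor 1 or 5 of the sgScramble group, or tumor 15 or 2 of the icOVA group, was removed, and the genes called over the whole table then numbered 0, 0, 0 and 8 (6 higher and 2 lower). At an unadjusted p below 0.05 each of those 4 fits had 4 of the 5 genes higher and 1 lower, and 3087, 2936, 3415 and 4008 genes in all. Without icOVA tumor 2 the adjusted p was 0.0681 for Cd4, 0.0753 for Cd8b1 and 0.0791 for Runx3 (edgeR with Benjamini-Hochberg adjustment). The same 3 genes were called without icOVA tumor 18, and Cd8a with them without sgScramble tumor 4 or icOVA tumor 16.

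Levels of the 5 genes were compared with each other as CPM per kilobase of exon. In the sgScramble tumors the order was Zbtb7b at 14.2 ± 0.371, Cd8a at 11.2 ± 3.84, Cd8b1 at 8.88 ± 3.04, Runx3 at 3.20 ± 0.15 and Cd4 at 1.31 ± 0.113 (CPM per kb, SD, n = 3). The range of Cd8a there overlapped those of Zbtb7b and Cd8b1, while Runx3 and Cd4 were apart from these and from each other. In the icOVA tumors Cd8b1 at 22.8 ± 5.59 and Cd8a at 22.2 ± 3.66 came first, ahead of Zbtb7b at 12.2 ± 0.608, Runx3 at 4.77 ± 0.513 and Cd4 at 3.55 ± 1.30 (CPM per kb, SD, n = 4). Of these neighbours, the CD8 chains did not differ beyond their spread, and neither did Runx3 and Cd4, since in tumor 18 Cd4 reached 5.36 CPM per kb and Runx3 5.08. By group mean the gene of the CD4 lineage factor was thus the first per length in the sgScramble group and the third in the icOVA group, although in sgScramble tumor 4 Cd8a, at 15.3 CPM per kb, was above Zbtb7b, at 14.1.

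The CD4 to CD8 balance was in favour of Cd8a in every tumor and did not differ detectably between the groups. Per 100 Cd8a counts there were 17.1, 10.2 and 13.7 Cd4 counts in tumors 1, 4 and 5 of the sgScramble group, and 14.6, 14.6, 26.8 and 14.8 in tumors 15, 16, 18 and 2 of the icOVA group. Of the icOVA tumors, 3 lay together inside the range of the sgScramble tumors, and tumor 18 alone was above it. Per kilobase of exon, Cd8a exceeded Cd4 6.50-, 10.9- and 8.07-fold in the sgScramble tumors and 7.57-, 7.58-, 4.13- and 7.47-fold in the icOVA tumors.

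As a share of the Cd4 and Cd8a counts together, Cd4 took 14.6%, 9.25% and 12.1% in tumors 1, 4 and 5 of the sgScramble group, and 12.8%, 12.8%, 21.2% and 12.9% in tumors 15, 16, 18 and 2 of the icOVA group. The 95% Wilson interval of tumor 18, 19.8% to 22.5%, lay above those of the other tumors, the nearest being sgScramble tumor 1 at 12.6% to 16.7%. The interval of sgScramble tumor 4, 8.07% to 10.6%, overlapped only that of sgScramble tumor 5, 10.5% to 13.9%. No molecular identifiers are named for these libraries, so these intervals cover counting error only.

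The mean log2 ratio of Cd4 to Cd8a was -2.90 ± 0.37 (SD, n = 3) in sgScramble tumors and -2.55 ± 0.43 (SD, n = 4) in icOVA tumors. The difference of 0.35 was smaller than either SD (exact two-sided permutation test, p = 0.4, and 0.522 after Benjamini-Hochberg adjustment over 8 ratio tests). With 3 and 4 tumors 0.0571 is the lowest p this test allows, so it cannot reach 0.05. The difference was 0.13 without icOVA tumor 18, 0.16 without sgScramble tumor 4 and 0.53 without sgScramble tumor 1. With both CD8 chains in the denominator it was 0.25 (exact two-sided permutation test, p = 0.457, and 0.522 after adjustment), or 0.03, 0.06 and 0.43 without those tumors in turn.

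Tumor 18 also stood apart in its tissue markers. The summed CPM of 4 fibroblast genes, of which Col1a1 was the most abundant, was 2502, 5955 and 2299 in tumors 1, 4 and 5 of the sgScramble group, and 8809, 2213, 12847 and 3254.5 in tumors 15, 16, 18 and 2 of the icOVA group. That of 5 epithelial genes, led by Krt8, was 4379, 4151 and 4197 in the sgScramble tumors and 4366, 4626, 2694 and 4148 in the icOVA tumors. Tumor 18 thus had the most fibroblast RNA and the least epithelial RNA of the 7. Its OVA level, at 98.2 CPM, was also the lowest of the icOVA group, against 186, 308 and 248 CPM in tumors 15, 16 and 2. Neither list had a gene called in either direction by edgeR, DESeq2 or limma-voom, with 0 genes at an unadjusted p below 0.05, and the median log2 fold changes were 0.70 and 0.06. The part of these lists and of OVA in the Cd4 to Cd8a balance of tumor 18 was not tested.

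The balance between the CD8 chains did not overlap between the groups, and its p was the lowest that 3 and 4 tumors allow. Per 100 Cd8a counts there were 32.4, 32.3 and 32.0 Cd8b1 counts in tumors 1, 4 and 5 of the sgScramble group, and 46.6, 39.6, 40.1 and 39.9 in tumors 15, 16, 18 and 2 of the icOVA group. The sgScramble tumors were almost identical although their Cd8a level itself ranged from 28.0 to 55.7 CPM, and all icOVA tumors lay above them, tumor 15 furthest. The log2 ratio of Cd8b1 to Cd8a was higher by 0.36 in the icOVA tumors (exact two-sided permutation test, p = 0.0571 and 0.114 after Benjamini-Hochberg adjustment over 8 tests). It ran from 0.31 without icOVA tumor 15 to 0.38 without icOVA tumor 16. Per kilobase there were 0.794, 0.792 and 0.785 Cd8b1 for each Cd8a in the sgScramble tumors, and 1.14, 0.972, 0.984 and 0.978 in the icOVA tumors.

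The ratio of Zbtb7b to Runx3, the balance of the lineage factors, was lower in every icOVA tumor than in every sgScramble tumor, again at the lowest p possible. There were 4.94, 4.81 and 5.12 Zbtb7b counts for each Runx3 count in tumors 1, 4 and 5 of the sgScramble group, and 2.59, 3.64, 2.62 and 2.74 in tumors 15, 16, 18 and 2 of the icOVA group. The groups were well apart, and tumor 16 was the icOVA tumor closest to the sgScramble group. The ratio was 1.73-fold lower in the icOVA group, a log2 difference of -0.79 (exact two-sided permutation test, p = 0.0571 and 0.114 after Benjamini-Hochberg adjustment over 8 tests). Without each tumor in turn it ran from -0.90 to -0.74. Runx3 itself had a log2 fold change of 0.58 and Zbtb7b one of -0.22, which did not pass. Per kilobase of exon, Zbtb7b exceeded Cd4 12.3-, 9.99- and 10.5-fold in the sgScramble tumors and 3.29-, 5.53-, 2.22- and 4.17-fold in the icOVA tumors. Both lineage factors also act outside T cells, and the part of T cells in this ratio was not tested.

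**Figure D2:**
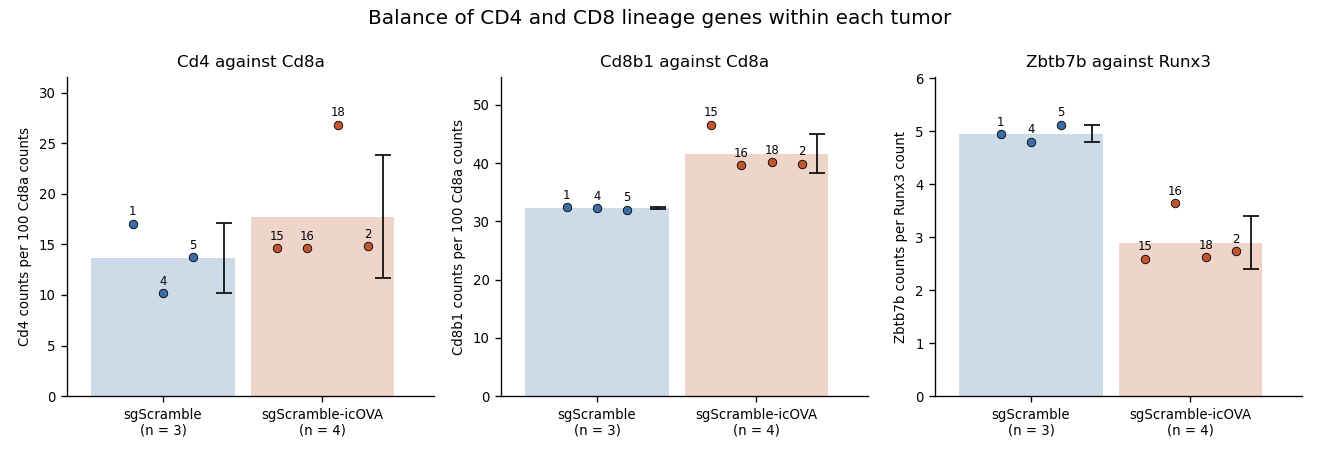
Ratios of counts within each tumor. The left panel gives Cd4 counts per 100 Cd8a counts, the middle panel Cd8b1 counts per 100 Cd8a counts and the right panel Zbtb7b counts per Runx3 count. Points are tumors with their numbers, shaded bars are group means and error bars are the SD (n = 3 sgScramble, n = 4 sgScramble-icOVA). Cd4 against Cd8a overlaps between the groups with tumor 18 alone at 26.8, whereas the other ratios do not overlap.

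The coreceptor genes were next set against T cell transcripts, taken as the geometric mean of the counts of Cd3d, Cd3e and Cd3g, which encode the signalling chains of the T cell receptor complex. For each unit of this mean there were 0.491, 0.402 and 0.453 Cd4 counts in tumors 1, 4 and 5 of the sgScramble group, and 0.416, 0.458, 0.745 and 0.445 in tumors 15, 16, 18 and 2 of the icOVA group. Cd8a had 2.87, 3.94 and 3.28 in the sgScramble tumors and 2.84, 3.13, 2.77 and 2.996 in the icOVA tumors. For each coreceptor the groups overlapped on this scale, and Cd4 in tumor 18 was again the value that stood out. The log2 differences were 0.16 for Cd4 (exact two-sided permutation test, p = 0.686, and 0.686 after Benjamini-Hochberg adjustment) and -0.19 for Cd8a (exact two-sided permutation test, p = 0.171, and 0.274 after adjustment). The difference of Cd4 was -0.026 without icOVA tumor 18, 0.09 without sgScramble tumor 4 and 0.25 without icOVA tumor 15, and that of Cd8a was -0.067 without sgScramble tumor 4 and -0.30 without sgScramble tumor 1. With Trac, the gene of the receptor's alpha chain, in place of the Cd3 genes, every icOVA tumor lay below every sgScramble tumor for Cd8a, with a difference of -0.26 (exact two-sided permutation test, unadjusted p = 0.0571, the lowest it allows). That of Cd4 was then 0.093 (exact two-sided permutation test, unadjusted p = 1).

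Relative to the T cell transcripts, the lineage factors were lower in every icOVA tumor than in every sgScramble tumor. The Cd3 genes in the denominator themselves rose by 1.13 to 1.27 on the log2 scale, against -0.22 for Zbtb7b and 0.58 for Runx3, so most of the difference for Zbtb7b and all of that for Runx3 lies in the denominator. Zbtb7b had 8.36, 5.56 and 6.56 counts for each unit of the Cd3 mean in tumors 1, 4 and 5 of the sgScramble group, and 1.89, 3.51, 2.29 and 2.57 in tumors 15, 16, 18 and 2 of the icOVA group. Runx3 had 1.69, 1.16 and 1.28 in the sgScramble tumors and 0.731, 0.963, 0.875 and 0.937 in the icOVA tumors. The log2 differences were -1.43 for Zbtb7b and -0.64 for Runx3 (exact two-sided permutation tests, p = 0.0571 for each, the lowest possible here, and 0.114 after Benjamini-Hochberg adjustment over 8 tests).

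All 6 genes of proteins that work with the coreceptors rose, with a median log2 fold change of 1.20 against -0.0048 over all tested genes. Lck, the kinase that the coreceptors carry, had 20.7 ± 2.19 CPM (SD, n = 3) in the sgScramble group and 44.5 ± 9.79 CPM (SD, n = 4) in the icOVA group, higher by 1.11 on the log2 scale (adjusted p = 0.0271, SE 0.18, edgeR with Benjamini-Hochberg adjustment). Zap70, the kinase that binds the phosphorylated receptor, rose by 1.21, the adaptors Lat and Lcp2 by 1.25 and 1.18 and Ptprc, the CD45 phosphatase that activates LCK, by 1.08 on the log2 scale. Of the 7 receptor genes (Cd3d, Cd3e, Cd3g, Cd247, Trac, Trbc1 and Trbc2) 6 were called higher and 0 lower by edgeR, with a median of 1.28, and Trbc1, at 1.33, had an adjusted p of 0.0541 (edgeR with Benjamini-Hochberg adjustment). Trbc1 and Trbc2 are nearly identical in sequence, so how their reads were divided is uncertain. At an unadjusted p below 0.05, 0 genes of these lists were lower, and none was called lower by DESeq2 or limma-voom. The log2 fold changes of Cd4 and Cd8b1, 1.44 and 1.36, lay within the 1.13 to 1.62 of the receptor genes and that of Cd8a, 0.98, below it, and Cd8b1 was not tested against T cell genes.

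Among 16 other regulators of the CD4 and CD8 lineage choice and of the coreceptor genes, 3 were called higher and 0 lower by edgeR, with a median log2 fold change of 0.13. At an unadjusted p below 0.05, 5 were higher and 3 lower, against 13.4% and 13.8% of all tested genes, DESeq2 called 5 higher and 2 lower and limma-voom 2 and 0. Satb1, a chromatin organiser that helps set lineage genes in the thymus, rose from 7.15 ± 0.678 CPM (SD, n = 3) to 16.4 ± 4.45 CPM (SD, n = 4), and Ikzf1, the lymphoid factor Ikaros, from 21.6 ± 6.45 CPM (SD, n = 3) to 48.0 ± 11.3 CPM (SD, n = 4). Socs1, an inhibitor of cytokine signalling, rose by 0.44 on the log2 scale. Tox, which the CD4 lineage needs in the thymus, was at 10.1 ± 1.65 CPM (SD, n = 3) in the sgScramble group and at 6.25 ± 1.91 CPM (SD, n = 4) in the icOVA group, and its log2 fold change of -0.69 did not pass (adjusted p = 0.134, edgeR with Benjamini-Hochberg adjustment). Patz1, whose product represses Cd8 genes, and Tcf3, an E protein, had log2 fold changes of -0.34 and -0.35 and did not pass either (adjusted p = 0.0808 and 0.0623, edgeR with Benjamini-Hochberg adjustment). Myb, a factor of progenitors and activated lymphocytes, and Lef1, a factor of the TCF family, had larger log2 fold changes of 1.24 and 0.86 in the other direction that did not pass (adjusted p = 0.0682 and 0.117, edgeR with Benjamini-Hochberg adjustment). Every icOVA tumor lay above every sgScramble tumor in 4 of the 16 (Satb1, Ikzf1, Socs1 and Myb) and below in 3 (Tox, Patz1 and Tcf3), against 11.3% and 13.3% of all tested genes.

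Of 12 genes typical of helper and regulatory T cells, Il4 and Il17a were not analysed here, and of the other 10, 2 were called higher and 1 lower by edgeR, with a median log2 fold change of 0.86. Icos, a costimulatory receptor, had 11.9, 13.6 and 10.9 CPM in tumors 1, 4 and 5 of the sgScramble group, and 36.2, 32.2, 40.9 and 28.9 CPM in tumors 15, 16, 18 and 2 of the icOVA group. The groups were far apart, and Icos, like Cd4, was highest in tumor 18. It rose by a log2 fold change of 1.51 (adjusted p = 0.017, SE 0.14, edgeR with Benjamini-Hochberg adjustment). Cd40lg, the helper ligand for CD40, rose by 1.44 on the log2 scale from a low level of 0.191 ± 0.036 CPM (SD, n = 3). Its counts ran from 5 to 8 per sgScramble tumor and from 15 to 21 per icOVA tumor. Of the 7 fits with a tumor left out, its call was kept in 1.

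Foxp3, the factor of regulatory T cells, had 2.82, 3.28 and 3.13 CPM in tumors 1, 4 and 5 of the sgScramble group, and 4.62, 2.24, 9.43 and 5.16 CPM in tumors 15, 16, 18 and 2 of the icOVA group. As with Cd4, tumor 18 was highest and tumor 16 lowest among the icOVA tumors, but for Foxp3 the groups overlapped and the log2 fold change of 0.80 (SE 0.42) did not pass (adjusted p = 0.264, edgeR with Benjamini-Hochberg adjustment). Without tumor 18 it was 0.38. Maf, a factor of helper cells and macrophages, was also highest in tumor 18, at 85.7 CPM, against 39.0 to 58.5 CPM in the other icOVA tumors and 43.8 to 45.8 CPM in the sgScramble tumors.

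Of 14 genes typical of cytotoxic CD8 T cells, 7 were called higher and 0 lower by edgeR, with a median log2 fold change of 1.05. In 12 of them every icOVA tumor lay above every sgScramble tumor, against 11.3% of all tested genes. At an unadjusted p below 0.05, 12 were higher and 0 lower, DESeq2 called 12 higher and 0 lower and limma-voom 5 and 0. Gzmk, the gene of granzyme K, had 0.835, 0.638 and 0.576 CPM in tumors 1, 4 and 5 of the sgScramble group, and 8.94, 5.65, 2.99 and 4.17 CPM in tumors 15, 16, 18 and 2 of the icOVA group. Tumor 15, the highest for Cd8a and Cd8b1, was also the highest for Gzmk, and tumor 18, the highest for Cd4, was the lowest of the icOVA group. The log2 fold change of Gzmk was 2.98 (adjusted p = 0.023, SE 0.42, edgeR with Benjamini-Hochberg adjustment). Eomes, a factor of cytotoxic and memory cells, rose by 1.05, Nkg7, a cytotoxic granule gene, by 1.25, Fasl by 1.08, Klrd1 by 0.97, Ifng by 1.08 and the chemokine gene Ccl5 by 1.01 on the log2 scale. The call of Eomes was narrow (adjusted p = 0.0482, edgeR with Benjamini-Hochberg adjustment). It was kept in 4 of the 7 alternatives with all tumors and in 1 of the 7 fits with a tumor left out. Gzmb at 1.11, Prf1 at 0.88 and Tbx21 at 0.85 did not pass (adjusted p = 0.0547, 0.0517 and 0.0743, edgeR with Benjamini-Hochberg adjustment).

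Calls in these and the lists that follow also depended on which tumors were in the fit. Unlike the calls of Cd4, Cd8b1 and Runx3, those of Eomes and Cd40lg were also lost without sgScramble tumor 4 or icOVA tumor 18. With tumor 1, 5 or 15 removed no list had a gene called, and without icOVA tumor 2 Icos alone among the listed genes was called (adjusted p = 0.0356, edgeR with Benjamini-Hochberg adjustment). With icOVA tumor 16 removed, edgeR called 11 of the cytotoxic genes higher, 4 of the helper genes, 4 of the naive lymphocyte genes, 3 of the gamma delta T cell genes, 2 each of the type 1 conventional dendritic cell and macrophage markers, and 1 each of the NK cell genes and the CD4 ligand genes. With sgScramble tumor 4 removed, it called 3 CD4 ligand genes higher, 2 macrophage markers, 1 helper gene and 0 gamma delta T cell genes. With icOVA tumor 18 removed, it called 1 helper gene, 6 cytotoxic genes and 2 lineage regulators higher.

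None of the genes of coreceptor ligands was called by edgeR, and their changes were not tested against those of the coreceptors. Of 4 genes that encode ligands of CD4, the MHC class II chains H2-Aa, H2-Ab1 and H2-Eb1 and the cytokine Il16, 0 were called by edgeR in either direction, with 4 higher and 0 lower at an unadjusted p below 0.05, 4 higher with DESeq2 and 0 with limma-voom. Their median log2 fold change was 0.42, with Il16 at 0.88, and H2-Aa, the most abundant, had 921 ± 129 CPM (SD, n = 3) in sgScramble and 1243 ± 50.5 CPM (SD, n = 4) in icOVA tumors. Of the 3 genes of MHC class I, H2-K1, H2-D1 and B2m, 0 were called by edgeR, DESeq2 or limma-voom, with 0 at an unadjusted p below 0.05. The median there was 0.18, and the log2 fold change of H2-K1 was 0.21.

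Some cells other than T cells carry these genes as well, and the markers of each were counted in the same way. Mouse plasmacytoid dendritic cells can carry CD4, and of 4 of their markers 3 were called higher and 0 lower by edgeR, with 0 lower at an unadjusted p below 0.05 or by DESeq2 or limma-voom. Siglech, the most specific of them, had 1.35, 2.58 and 1.18 CPM in tumors 1, 4 and 5 of the sgScramble group, and 6.00, 4.64, 7.36 and 6.00 CPM in tumors 15, 16, 18 and 2 of the icOVA group. Like Cd4 it was highest in tumor 18 and lowest of the icOVA group in tumor 16. Siglech rose by 1.81 on the log2 scale, with Ccr9 at 1.94 and Spib at 1.40. Tcf4, at 0.059, did not pass (adjusted p = 0.769, edgeR with Benjamini-Hochberg adjustment) and overlapped between the groups. The summed CPM of the 4 markers, most of it Tcf4, was 104, 113 and 90.6 in the sgScramble tumors and 117, 101, 135 and 110.4 in the icOVA tumors. None of the 4 was at 0, and their part in the rise of Cd4 was not tested.

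Macrophage markers, of which 1 of 6, Cd68, was called higher and 0 lower by edgeR, had a median log2 fold change of 0.58, with 5 higher and 0 lower at an unadjusted p below 0.05. DESeq2 called 3 of them higher and limma-voom 2, and neither called one lower. By group mean the most abundant macrophage marker was C1qa in the sgScramble group and C1qb in the icOVA group. The summed CPM of the 6 was 863, 1178 and 986 in tumors 1, 4 and 5 of the sgScramble group, and 1528, 1178, 1780.3 and 1235 in tumors 15, 16, 18 and 2 of the icOVA group, again highest in tumor 18. None of the 6 was at 0, and their part in the Cd4 and Maf levels of tumor 18 was not tested.

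Type 1 conventional dendritic cells of mice can carry CD8 alpha without CD8 beta. Of their 6 markers 1, Irf8, which many leukocytes also use, was called higher by edgeR and 0 lower, with a median log2 fold change of 0.23, and 2 were higher and 1 lower at an unadjusted p below 0.05. DESeq2 called 2 higher and limma-voom 1, and neither called one lower. The defining markers Xcr1, at 2.48 ± 0.555 and 2.85 ± 0.102 CPM, and Clec9a, at 3.97 ± 0.747 and 4.76 ± 0.94 CPM (SD, n = 3 sgScramble and n = 4 icOVA), overlapped between the groups. By group mean the most abundant marker was Tlr3 in the sgScramble group and Irf8 in the icOVA group. The summed CPM was 220.1, 182 and 192 in tumors 1, 4 and 5 of the sgScramble group, and 214, 213, 183 and 223 in tumors 15, 16, 18 and 2 of the icOVA group. Batf3 at 0.89 and Cadm1 at -0.95 on the log2 scale did not pass (adjusted p = 0.107 and 0.153, edgeR with Benjamini-Hochberg adjustment), so the summed level, which overlapped between the groups, adds genes of both signs. The part of these cells in the Cd8a level was not tested.

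Gamma delta T cells can also carry CD8 alpha alone. Of 5 of their genes, Tcrg-C2 was called higher and 0 were called lower by edgeR, with a median log2 fold change of 0.99, 4 higher and 0 lower at an unadjusted p below 0.05, 2 higher with DESeq2 and 1 with limma-voom. The summed CPM, led by Sox13, was 22.3, 31.2 and 23.1 in tumors 1, 4 and 5 of the sgScramble group, and 33.4, 25.0, 29.6 and 30.3 in tumors 15, 16, 18 and 2 of the icOVA group. Sox13, which made up most of this sum, had a log2 fold change of -0.016. Those of Trdc, Tcrg-C1, Tcrg-C2 and Tcrg-C4 ran from 0.96 to 1.27. The part of gamma delta T cells in the CD8 chain levels was not tested.

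NK cells use Runx3 and share cytotoxic genes with CD8 T cells. Of 5 NK cell genes 0 were called in either direction by edgeR, with 1 higher and 0 lower at an unadjusted p below 0.05, 1 higher with DESeq2 and 0 with limma-voom, and the median log2 fold change was 0.79. Their summed CPM, led by Klra4, was 49.6, 35.7 and 32.4 in tumors 1, 4 and 5 of the sgScramble group, and 56.9, 47.8, 66.4 and 55.1 in tumors 15, 16, 18 and 2 of the icOVA group. Tumor 16, the lowest icOVA tumor for Runx3, also had the lowest sum of that group, which overlapped those of the sgScramble tumors. This sum mixes opposite patterns, since Klra4 was highest of all tumors in tumor 16, at 34.3 CPM. Ncr1, Klrb1c, Klra8 and Klre1 were each lowest of the icOVA group there, at 1.89, 5.07, 2.03 and 4.47 CPM. They were highest in tumor 18, at 8.31, 13.8, 8.43 and 10.4 CPM. The part of NK cells in the rise of Runx3 was not tested.

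Of 4 genes of naive and recirculating lymphocytes 2 were called higher by edgeR, among them Il7r, the gene of the receptor for interleukin 7, and 0 were lower by edgeR, at an unadjusted p below 0.05 or by DESeq2 or limma-voom, with a median log2 fold change of 1.09. Ccr7 and S1pr1 did not pass (adjusted p = 0.096 and 0.0659, edgeR with Benjamini-Hochberg adjustment), and the groups overlapped for Ccr7. The summed CPM, led by S1pr1, was 76.1, 81.6 and 60.1 in tumors 1, 4 and 5 of the sgScramble group, and 160, 106, 162 and 138 in tumors 15, 16, 18 and 2 of the icOVA group. Of 5 B cell genes 4 were tested and 0 called by edgeR, DESeq2 or limma-voom, with 0 at an unadjusted p below 0.05 and a median of 0.72. Their summed CPM, led by Pax5, was 2.59, 3.37 and 3.87 in the sgScramble tumors and 5.92, 5.39, 5.29 and 5.50 in the icOVA tumors. The part of naive lymphocytes in the coreceptor levels was not tested.

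For each of the 5 genes, the 3 genes with the most similar pattern were taken among 12347 genes, by the root mean square difference of log2 CPM over the 7 tumors after each gene was centred on its mean. Nearest to Cd4 were Il27ra (0.143), Gimap1 and Gimap3 (0.155 each). Nearest to Cd8a were Gpr55 (0.108), Klhl6 (0.118) and Cd3g (0.131), and nearest to Cd8b1 were Irf4 (0.117), Cd3e (0.125) and Trac (0.15). The patterns of the CD8 chains therefore lay close to those of genes of the T cell receptor complex, which were not among the 3 nearest to Cd4. Nearest to Runx3 were Ikbke (0.0644), AW011738 (0.0672) and Ralgds (0.0715), and nearest to Zbtb7b were Zmym4 (0.0203), Cpsf1 (0.0267) and Gm7964 (0.0271). When each gene was centred within its group instead, 1 of these 15 neighbours remained, Cd3e for Cd8b1.

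RUNX proteins bind the letters TGTGGT, on the other strand ACCACA, and the sequences around gene starts were searched for them because Runx3 and Zbtb7b are the factors of the opposing lineages. RefSeq windows of 300 bases on GRCm38.p6, from 250 before to 50 after a start, were found for 3 of the 5 genes, Cd8a, Zbtb7b and Runx3. The plus strand window of Runx3 at chr4:135120395-135120694 held 2 matches, and the minus strand window of Zbtb7b at chr3:89387622-89387921 held 1. The other Runx3 window, the other Zbtb7b window and that of Cd8a held 0. Over all 32851 windows of this length, 16.8% held at least 1 match and 1.81% at least 2. The stretches with matches are given 5′ to 3′ with the matched letters in capitals, for Runx3 chr4:135120491-135120544 on the plus strand and for Zbtb7b chr3:89387735-89387780 on the minus strand. A match is a description of these letters.
Runx3: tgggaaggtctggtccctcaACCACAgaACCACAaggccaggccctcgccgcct
Zbtb7b: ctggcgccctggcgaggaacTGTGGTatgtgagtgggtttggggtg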

How the data were processed

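The authors deposited raw counts of reads per gene in 7 tumors, and the submitters' processing notes name the build mm10. The aligner, the counting tool and the annotation are not given in the sources used here, and the labels name polyA RNA where the methods name a stranded total RNA kit. Identifiers were matched to GENCODE M21 symbols, ignoring the version (22414 matched). The test was that of edgeR 4.0.16 (R 4.3.3), after filterByExpr (minimum count 10, minimum total 15) and TMM scaling, a quasi-likelihood test with Benjamini-Hochberg adjustment and a threshold of 0.05. Log2 CPM had a prior count of 2. Ratios of counts, with 0.5 added, were compared by exact permutation tests in scipy 1.17.1. Alternatives were DESeq2 1.42.0, limma-voom (limma 3.58.1), total count and upper quartile scaling, other filters on low counts, robust dispersion, other pseudocounts, Trac as the T cell gene and leaving out each tumor. The genes named were the 5 members, OVA, genes of 16 lists (lineage regulators, coreceptor signalling, T cell receptor, helper, cytotoxic, MHC class II with Il16, MHC class I, type 1 conventional and plasmacytoid dendritic cell, NK, gamma delta T cell, macrophage, B cell, naive lymphocyte, epithelial and fibroblast genes) and the 3 genes most like each member. The members and lists were chosen with earlier results of these data known. Single values of some listed genes are not reported here.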

Additional observations from a re-analysis of the deposited data

Results flagged for a closer look

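Among the 4 icOVA tumors, 13 values were examined for a tumor far from the rest, by the gap to its nearest neighbour over the range of the group, against Dixon's critical value for 4 samples. Of these, 6 were above it, where chance flags about 1 in 20 (0.65 of 13), and several of the 6 share a gene, so they are not independent. Tumor 18 was far above the other icOVA tumors in the log2 ratio of Cd4 to Cd8a (gap over range 0.976), of Cd4 to the sum of Cd8a and Cd8b1 (0.907) and of Cd4 to the Cd3 genes (0.835). Its log2 ratio of Cd4 to Cd8a was -1.90, against -2.77, -2.77 and -2.75 in icOVA tumors 15, 16 and 2.

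Tumor 16 was far below the other icOVA tumors in the log2 CPM of Runx3 (gap over range 0.913) and far above them in the log2 ratio of Zbtb7b to Runx3 (0.838), at 1.86 against 1.37, 1.39 and 1.45 in icOVA tumors 15, 18 and 2. Tumor 15 was far above the others in the log2 ratio of Cd8b1 to Cd8a (0.922), at -1.10 against -1.33, -1.32 and -1.33 in icOVA tumors 16, 18 and 2.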

How the results depend on the processing

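No paired analysis was possible because no tumor number occurs in both groups. DESeq2 called 1553 genes higher and 1267 lower, against 588 and 444 with edgeR, 1 of the 5 members was called lower, Cd8a passed at a log2 fold change of 0.99 and Zbtb7b at -0.21. With limma-voom Cd4, at 1.38, no longer passed and Cd8a, at 1.03, did, and with at least 10 counts in every tumor Cd8a, at 0.99, passed. Other settings that kept all tumors changed no call of the members and reversed no direction, and the cause was not tested. Without each tumor in turn, genes called higher ran from 0 to 1014 and lower from 0 to 716, and members called higher from 0 to 4 and lower from 0 to 0. The log2 fold changes ran from 1.17 to 1.60 for Cd4, 0.77 to 1.28 for Cd8a, 1.16 to 1.66 for Cd8b1, -0.25 to -0.19 for Zbtb7b and 0.54 to 0.65 for Runx3. The log2 ratio of Cd4 to the Cd3 genes reversed to -0.026 without icOVA tumor 18 and ran up to 0.25. For 66 other named genes, 426 of 460 values with all tumors stayed in direction and call, 13 were weaker and 21 stronger. With a tumor left out, 275 of 459 did, 171 were weaker and 13 stronger. Cd4, at 166 to 187 counts in sgScramble tumors, is the least deeply counted member.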
